A study of Mus musculus with 12 samples.

Results

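The genes described here encode the subunits of the glutamate and GABA receptors, the receptors through which neurons excite and inhibit each other. They were taken by gene symbol: the AMPA (Gria), kainate (Grik), NMDA (Grin), delta (Grid) and metabotropic (Grm) glutamate receptor genes, the GABA-A receptor genes (Gabr followed by a, b, d, e, g, q or r) and the GABA-B receptor genes (Gabbr). Of 24421 genes in the files, 46 symbols matched, and the 41 with at least 10 counts in at least 3 libraries were kept. These comprised 25 glutamate receptor genes and 16 GABA receptor genes. The others were close to absent: the highest count in any library was 4 for Gabra6, 10 for Gabrr1, 11 for Gabrr2, 1 for Gabrr3 and 3 for Grm6. All 41 kept genes reached 10 counts in at least 3 tumour libraries, so none was kept through the naive libraries alone.

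Bulk RNA sequencing covered 12 mouse brain samples in 4 groups of 3 libraries. The control group, called naive in the labels, was cortex that received no injection. The tumour groups were whole tumours that grew after injection into the brain of RCAS viruses, avian retroviral vectors, carrying YAP1-FAM118B, YAP1-TFE3 or YAP1-MAMLD1-dR3R1, fusions of the Hippo pathway co-activator YAP1. The labels do not explain the suffix dR3R1, and they give no strain, age or receptor allele for the host mice. The tissue field calls all 4 groups tumours, while the source field names the naive samples as normal cortex. The extraction protocol speaks of cultured cells, while the design text speaks of frozen tumours. Nothing in the labels ties the 3 libraries of a group to different mice, and the p-values measure only the spread among these libraries.

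As background, AMPA and kainate receptors are cation channels that carry fast excitation, and NMDA receptors add calcium entry that depends on both glutamate and depolarisation. Metabotropic receptors act through G proteins: group I couples to phospholipase C, and groups II and III lower cyclic AMP. GABA-A receptors are chloride channels built as pentamers of alpha, beta and usually gamma or delta subunits, and GABA-B receptors are obligate pairs of Gabbr1 and Gabbr2 products that act through G proteins. Neurons express most of these genes, and glia and their precursors express some of them.

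Total counts lay between 19850220 and 24760814 per library. Levels are given as CPM, counts scaled to a common library size with a TMM factor, and in each group in the order of replicates 1, 2 and 3. A count of 3 corresponded to 0.116 to 0.145 CPM, a limit that covers counting error only. Naive replicate 3 differed in its regional markers: the summed level of 10 cortical excitatory neuron genes was 3413, 2884 and 1370.3 CPM in naive cortex, and that of 11 tested hypothalamus genes was 132, 121 and 390.4 CPM. Naive replicate 2 and YAP1-FAM118B replicate 2 held both Xist (25.6 and 162 CPM) and Y-linked Ddx3y (49.3 and 29.9 CPM). Of the other libraries, naive replicate 3, YAP1-MAMLD1-dR3R1 replicate 1 and YAP1-FAM118B replicate 1 held Xist (304.7, 492 and 319.9 CPM) with Ddx3y at most at 0.0440 CPM, while naive replicate 1, YAP1-MAMLD1-dR3R1 replicates 2 and 3 and YAP1-FAM118B replicate 3 held Ddx3y (62.8 to 85.8 CPM) with Xist at most at 0.0443 CPM, so each of these 3 groups came from more than 1 mouse. All 3 YAP1-TFE3 libraries held Ddx3y with Xist at most at 0.434 CPM, and for them a technical spread cannot be told apart from one between mice. Within the tumour groups YAP1-MAMLD1-dR3R1 replicate 3 and YAP1-TFE3 replicate 2 stood apart in their neuron genes, as described further on.

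Receptor subunit transcripts were lower in the tumours than in naive cortex, most in YAP1-TFE3 and least in YAP1-FAM118B tumours. The summed level of all 41 genes was 7021, 6483 and 6379 CPM in naive cortex, 1432, 978 and 717 in YAP1-MAMLD1-dR3R1 tumours, 3117, 4636 and 2569 in YAP1-FAM118B tumours and 230.0, 788 and 196 in YAP1-TFE3 tumours. These sums were 21.6, 14.8 and 10.8% of the naive mean in YAP1-MAMLD1-dR3R1 tumours, 47.0, 70.0 and 38.8% in YAP1-FAM118B tumours and 3.47, 11.9 and 2.96% in YAP1-TFE3 tumours. All 9 tumour libraries lay below all 3 naive libraries. The YAP1-FAM118B libraries lay above the others, while YAP1-TFE3 replicate 2 lay between YAP1-MAMLD1-dR3R1 replicates 2 and 3. In bulk tissue, fewer cells of a type and less RNA per cell cannot be told apart.

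**Figure D1:**
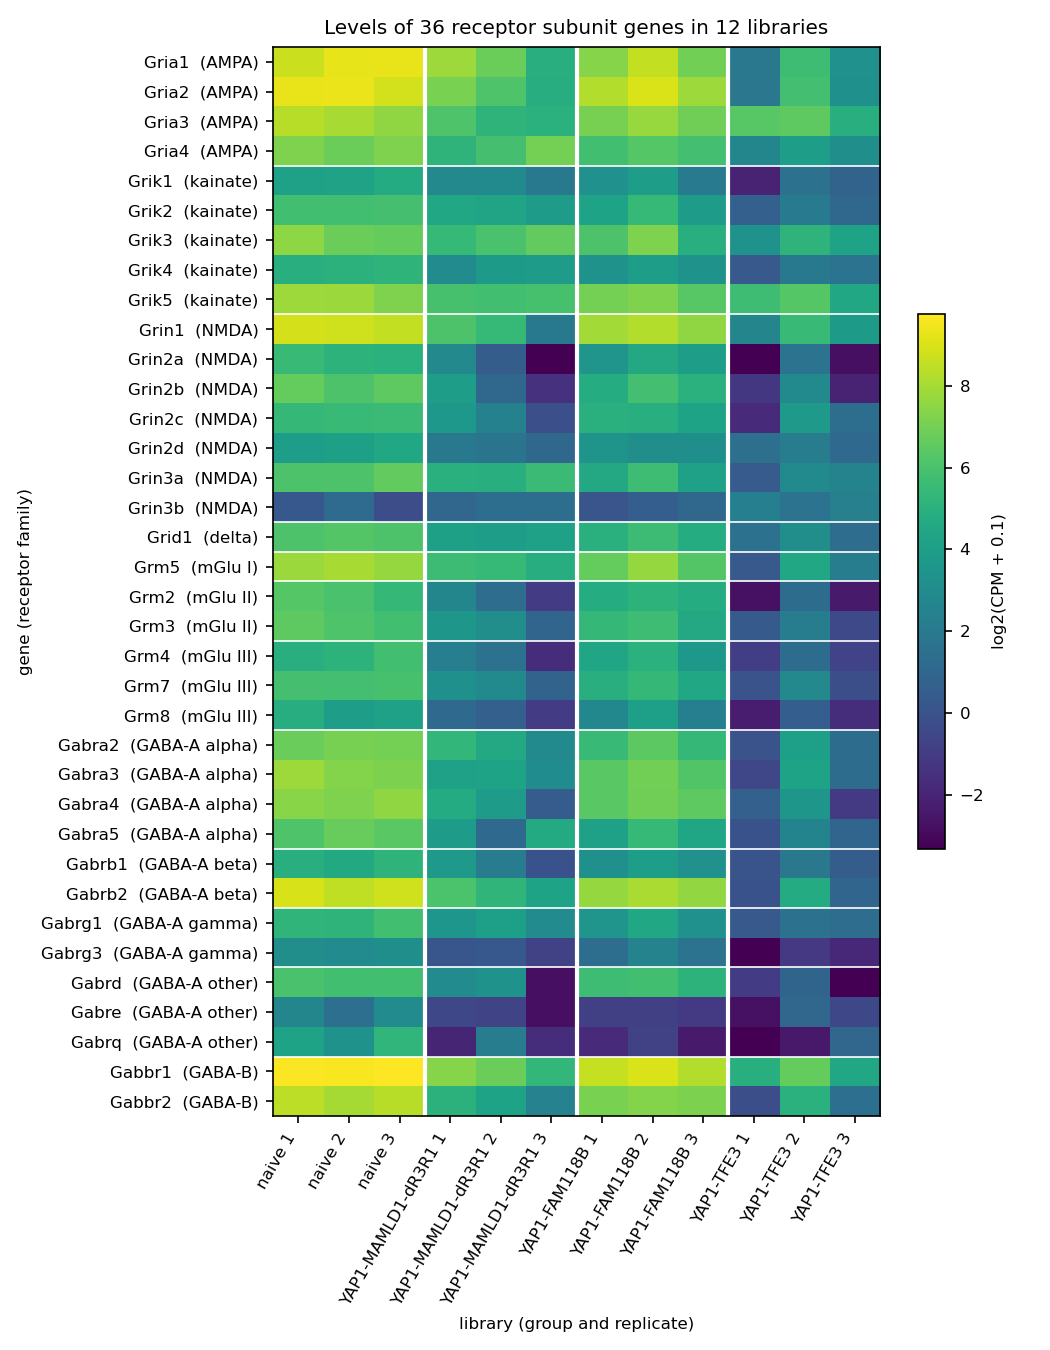
Level of 36 of the 41 receptor subunit genes in each of the 12 libraries as a heatmap of log2(CPM + 0.1), with genes down the side by family and libraries across by group. The columns of the YAP1-TFE3 and YAP1-MAMLD1-dR3R1 libraries are darker (lower) than the naive ones over most genes, those of the YAP1-FAM118B libraries are closest to naive cortex, and Grin3b is brighter in the YAP1-TFE3 libraries.

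In YAP1-MAMLD1-dR3R1 tumours 34 of the 41 genes fell against naive cortex in edgeR's quasi-likelihood test (adjusted p under 0.05), a share to be read against 28.8% of all genes tested that fell. The 7 genes that did not pass, all of them glutamate receptor genes, included Gria1, Gria4, Grik1, Grik3, Grin3a and Grin3b. All 16 GABA receptor genes fell. The median log2 fold change was -2.90 over the 41 genes, -2.52 over the glutamate receptor genes and -3.33 over the GABA receptor genes, beside 0.06 over all genes tested. In 39 of 41 genes all YAP1-MAMLD1-dR3R1 libraries lay below all naive libraries. The share of all genes tested that separated in this way was not computed, so this count has no background to be read against.

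Leaving out 1 library moved the number of YAP1-MAMLD1-dR3R1 calls between 22 and 38, where 54.8 and 62.7% of all genes passed, and 13 of the 34 calls ended without some library. Without YAP1-MAMLD1-dR3R1 replicate 2, 12 calls ended, among them Gria2, Grin2a, Grin2b, Grin2c, Grm5, Gabra2, Gabra4, Gabrb1, Gabrb2 and Gabrd (edgeR adjusted p of those named 0.0541 to 0.14). Without YAP1-MAMLD1-dR3R1 replicate 3, the library of that group with the lowest neuron genes, 9 calls ended (adjusted p 0.051 to 0.123) and Gria4 gained one (adjusted p = 0.00973). In that fit 26 genes were called, where 54.5% of all genes passed. Naive replicates 1, 2 and 3 each carried 8, 6 and 8 calls that ended without them (adjusted p 0.0573 to 0.104, 0.0554 to 0.0847 and 0.0516 to 0.127). The calls of Gabrd and Gabrq ended without YAP1-MAMLD1-dR3R1 replicate 1 (adjusted p 0.0609 to 0.0997). Those of Grin2a, Grin2c and Gabrq ended without any 1 of the YAP1-FAM118B libraries, and Gabra2 without replicate 1 or 3 of them (adjusted p 0.0537 to 0.0682), and that of Grin2c without YAP1-TFE3 replicate 3 (adjusted p = 0.0505). Calls were gained without YAP1-TFE3 replicate 1 by Gria1, Grik1 and Grin3a (adjusted p 0.011 to 0.0406), without YAP1-TFE3 replicate 2 by Gria1 and Grik1 (adjusted p 0.0212 to 0.0398), without YAP1-MAMLD1-dR3R1 replicate 1 by Gria1 (adjusted p = 0.0421) and without naive replicate 2 by Grin3b, as higher (adjusted p = 0.0277). No call changed its direction.

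In YAP1-FAM118B tumours 5 of the 41 genes fell against naive cortex, namely Grik4, Grin2d, Gabrg1, Gabre and Gabrq, where 8.45% of all genes tested fell and 29.7% passed in either direction. This count depended on the fit: one of only the naive and YAP1-FAM118B libraries called 31 genes as lower, these 5 among them, where 42.6% of all genes tested passed, and DESeq2 called 11, where 38% passed. Leaving out both libraries with Xist and Ddx3y gave 3 calls, where 25.2% passed, and only 2 of the 5 were among them. Grin2d, Gabre and Gabrq lost theirs (edgeR adjusted p 0.0563 to 0.142), and Grik2 gained one (adjusted p = 0.0219). The direction was shared more widely than the calls: 40 of 41 log2 fold changes were below 0, and in 33 genes all YAP1-FAM118B libraries lay below all naive libraries. The shares of all genes tested that did so were not computed. The median was -1.02, beside -0.05 over all genes tested. A missed threshold does not show that the other genes were at naive levels. All 5 calls ended without YAP1-FAM118B replicate 1 (edgeR adjusted p 0.068 to 0.0872) or replicate 3 (adjusted p 0.0688 to 0.134), and Grin2d and Gabre lost theirs without replicate 2 (adjusted p 0.0557 to 0.0939). Among the naive libraries, replicate 3 carried the calls of Grin2d, Gabrg1, Gabre and Gabrq (adjusted p 0.0559 to 0.141 without it) and replicate 1 those of Grin2d and Gabre (adjusted p 0.0713 to 0.104). The Grin2d call also ended without naive replicate 2 (adjusted p = 0.0811), YAP1-MAMLD1-dR3R1 replicate 2 (0.0986) or 3 (0.0597), and YAP1-TFE3 replicate 1 (0.0871) or 3 (0.0511). Calls were gained by Grik2 and Grin3a without YAP1-FAM118B replicate 2 (adjusted p 0.00797 to 0.034), by Gria4 without YAP1-MAMLD1-dR3R1 replicate 1 or 3 (0.0474 and 0.0444), by Grin3a without YAP1-TFE3 replicate 1 (adjusted p = 0.026) and by Grik2 and Grid1 without YAP1-TFE3 replicate 2 (0.00486 to 0.0376).

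In YAP1-TFE3 tumours 40 of the 41 genes fell against naive cortex and 1, Grin3b, rose, where 30.0% of all genes tested fell, 40.6% rose and 70.6% passed in all. The median was -4.47, beside 0.23 over all genes tested, and it was -4.32 over the glutamate receptor genes and -4.80 over the GABA receptor genes. In all 40 genes that fell the YAP1-TFE3 libraries lay below all naive libraries, again with no share over all genes computed. Without YAP1-TFE3 replicate 2 all 41 calls remained. The calls that ended without 1 library were those of Grin2c and Gabre without YAP1-TFE3 replicate 3 (edgeR adjusted p 0.0816 to 0.0908), Grin2c, Grin3b and Gabre without naive replicate 1 (0.0527 to 0.0641), Grin2c without naive replicate 2 (0.0622) and Grin2c and Gabre without naive replicate 3 (0.0612 to 0.0836). All 3 comparisons with naive cortex share the same naive libraries.

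**Figure D2:**
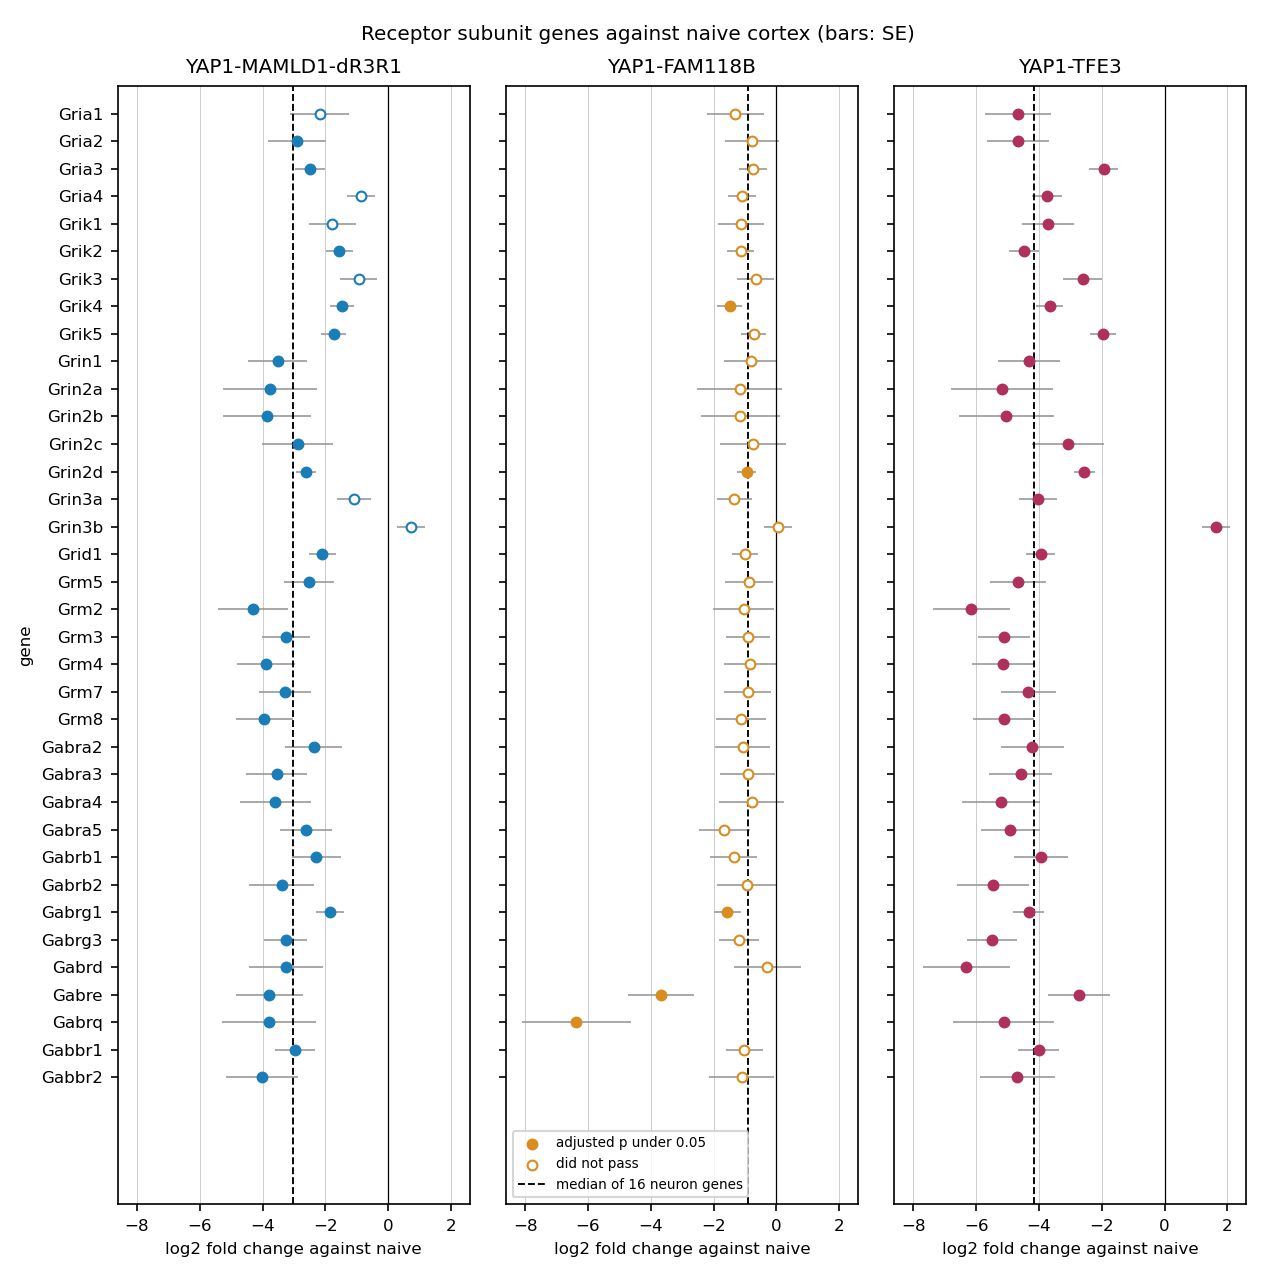
Log2 fold change against naive cortex of the same 36 receptor subunit genes in each fusion, with SE bars, where filled points passed edgeR's test and open points did not, and the dashed line marks the median of 16 neuron genes. Most points lie left of 0 in all 3 panels, and Grin3b lies right of 0 in YAP1-TFE3.

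Between the fusions, 8 genes were higher in YAP1-FAM118B than in YAP1-MAMLD1-dR3R1 tumours, namely Gria3, Grin2d, Grm2, Grm3, Grm4, Grm8, Gabrg3 and Gabbr1, where 12.7% of all genes tested were higher. DESeq2 called 18 and a fit of only these groups 14, while a table with no filter gave 4 and the fit without both libraries with Xist and Ddx3y 1, all of them higher. In the same order 36.8, 23, 17.7 and 6.08% of all genes passed in either direction, against 26.2% in the main fit. The median was 1.75, beside -0.05 over all genes. In 27 genes the YAP1-FAM118B libraries lay above all YAP1-MAMLD1-dR3R1 libraries, a count whose share over all genes was not computed. The Grin2d call held without each of the 12 libraries, and the other 7 ended without some library: without YAP1-FAM118B replicate 1, 2 or 3, 7, 7 and 4 calls ended (edgeR adjusted p 0.0516 to 0.092, 0.0761 to 0.139 and 0.0502 to 0.0753). Without YAP1-MAMLD1-dR3R1 replicate 1, 2 or 3, 1, 7 and 7 ended (adjusted p 0.0626, 0.0821 to 0.14 and 0.0592 to 0.126), and without naive replicate 1, 2 or 3, 6, 6 and 5 ended (adjusted p 0.0539 to 0.0735, 0.0539 to 0.0716 and 0.0555 to 0.0665). Without YAP1-TFE3 replicate 1, 2 or 3 the calls numbered 14, 22 and 13, where 25.9, 29 and 30.4% of all genes passed. Where leaving out 1 library ended 7 calls, 10 to 11.6% of all genes passed.

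Against YAP1-MAMLD1-dR3R1 tumours, 8 genes were lower in YAP1-TFE3 tumours, among them Gria4, Grik2, Grik4, Grin3a, Grid1, Gabrg1 and Gabrg3, where 16.9% of all genes tested were lower. These 8 were 19.5% of the 41 genes, a share near that of all genes tested. DESeq2 called 16, these 8 among them, where 43.8% of all genes passed in either direction, against 39.5% in the main fit. The median was -1.64, beside -0.05 over all genes. Without YAP1-TFE3 replicate 2 the number of calls was 32 (adjusted p of the 24 gained 0.000194 to 0.0439), and without YAP1-MAMLD1-dR3R1 replicate 3 it was 12. The shares of all genes that passed in these fits are not given here, so the 32 and the 12 have no background to be read against. The Gabrg3 call ended without YAP1-MAMLD1-dR3R1 replicate 1 (adjusted p = 0.0785), YAP1-MAMLD1-dR3R1 replicate 2 (adjusted p = 0.0792), YAP1-TFE3 replicate 3 (adjusted p = 0.0674), naive replicate 2 (adjusted p = 0.0567) or naive replicate 3 (adjusted p = 0.0554). Against YAP1-FAM118B tumours, 36 genes were lower in YAP1-TFE3 tumours and Grin3b was higher, where 23.7% of all genes tested were lower, 28.0% were higher and 51.7% passed in all. The genes that did not pass were Grin2a, Grin2c, Gabre and Gabrq, and the median was -3.37 beside 0.08. Of these 37 calls 12 ended without some library. Leaving out YAP1-FAM118B replicate 1, 2 or 3 ended 4, 9 and 2 (edgeR adjusted p 0.0583 to 0.0685, 0.0535 to 0.153 and 0.0506 to 0.0642), leaving out YAP1-TFE3 replicate 1 or 3 ended 4 and 9 (0.0662 to 0.105 and 0.0513 to 0.0828), and leaving out naive replicate 1, 2 or 3 ended 1, 2 and 2 (0.0593, 0.0602 to 0.0628 and 0.0526 to 0.0595). Without YAP1-TFE3 replicate 2, Grin2a and Grin2c passed too (adjusted p 0.0053 to 0.0105).

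The 4 AMPA receptor genes behaved unequally. Their summed level was 30.5, 18.0 and 14.2% of the naive mean in YAP1-MAMLD1-dR3R1 tumours, 42.6, 76.5 and 34.3% in YAP1-FAM118B tumours and 6.26, 13.9 and 3.69% in YAP1-TFE3 tumours. Gria1, whose product is trafficked to synapses during potentiation, measured 419.8, 606 and 644 CPM in naive cortex, 225, 112 and 30.1 in YAP1-MAMLD1-dR3R1 tumours, 169, 380.4 and 126 in YAP1-FAM118B tumours and 3.62, 51.8 and 9.66 in YAP1-TFE3 tumours. Gria2, whose edited product keeps AMPA receptors impermeable to calcium, measured 646, 661 and 469 CPM in naive cortex, 139, 70.3 and 28.2 in YAP1-MAMLD1-dR3R1 tumours, 299, 510.2 and 227 in YAP1-FAM118B tumours and 3.57, 57.1 and 9.19 in YAP1-TFE3 tumours. Both were near the bottom of their range in YAP1-TFE3 replicates 1 and 3 and higher in replicate 2, and all tumour libraries lay below the naive ones except YAP1-FAM118B replicate 2 for Gria2.

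Gria3, an X-linked AMPA subunit gene, measured 327, 265 and 189 CPM in naive cortex, 70.5, 36.2 and 32.1 in YAP1-MAMLD1-dR3R1 tumours, 135, 213 and 120.0 in YAP1-FAM118B tumours and 83.2, 90.6 and 29.4 in YAP1-TFE3 tumours. YAP1-TFE3 replicates 1 and 2 lay above all YAP1-MAMLD1-dR3R1 libraries. It fell by 1.94 ± 0.46 (SE) on the log2 scale in YAP1-TFE3 tumours (edgeR adjusted p = 0.00356), while Gria1 and Gria2 had log2 fold changes of -4.68 and -4.67. The difference between these genes was not tested. Per kilobase of exon, Gria3 was at 6.87 CPM and Gria1 at 3.59 CPM in YAP1-TFE3 tumours, against 26.4 and 92.1 in naive cortex.

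Gria4, an AMPA subunit gene with rapid channel kinetics that is also expressed in oligodendrocyte precursors, measured 148, 114 and 148 CPM in naive cortex, 36.6, 59.0 and 129.6 in YAP1-MAMLD1-dR3R1 tumours, 56.2, 77.8 and 58.1 in YAP1-FAM118B tumours and 6.41, 15.3 and 8.87 in YAP1-TFE3 tumours. Its level in YAP1-MAMLD1-dR3R1 replicate 3 overlapped the naive range, and it was lowest in all 3 YAP1-TFE3 libraries. It did not pass in YAP1-MAMLD1-dR3R1 tumours (log2 fold change -0.86 ± 0.43 (SE), edgeR adjusted p = 0.105) until that replicate was left out (adjusted p = 0.00973), and it was lower in YAP1-TFE3 than in YAP1-MAMLD1-dR3R1 tumours (log2 fold change -2.88 ± 0.47 (SE), edgeR adjusted p = 0.00107). The 10 oligodendrocyte precursor markers stood at median log2 differences from naive of -0.39, 0.78 and 1.60 in the YAP1-MAMLD1-dR3R1 libraries, -0.85, -0.01 and -1.74 in the YAP1-FAM118B libraries and -1.72, -0.79 and -0.95 in the YAP1-TFE3 libraries. Of these markers 5 rose and 3 fell in YAP1-MAMLD1-dR3R1 tumours, beside 34.4 and 28.8% of all genes tested. The summed level of the markers was 750.2 to 796 CPM in naive cortex and 462 to 1473 in YAP1-MAMLD1-dR3R1 tumours, and none was at 0 in any library. Their part in the Gria4 level was not tested.

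Summed, the 5 kainate receptor genes kept the largest share of their naive level among the AMPA, kainate and NMDA families in YAP1-MAMLD1-dR3R1 and YAP1-TFE3 tumours. Their summed level was 32.5, 36.1 and 44.0% of the naive mean in YAP1-MAMLD1-dR3R1 tumours, 54.2, 84.6 and 32.1% in YAP1-FAM118B tumours and 14.7, 28.4 and 10.8% in YAP1-TFE3 tumours. In YAP1-TFE3 tumours Grik5 alone gave 51.9, 78.7 and 21.9 of the summed 64.9, 125 and 47.6 CPM. The median log2 fold change there was -3.66 for the kainate genes, beside -4.21 for the AMPA and -4.04 for the NMDA genes. Grik5, which encodes a high-affinity subunit that needs a partner from Grik1 to Grik3 to form channels, measured 229.6, 218 and 147 CPM in naive cortex, 62.0, 55.0 and 61.4 in YAP1-MAMLD1-dR3R1 tumours, 131, 148 and 81.9 in YAP1-FAM118B tumours and 51.9, 78.7 and 21.9 in YAP1-TFE3 tumours. It was nearly equal in the 3 YAP1-MAMLD1-dR3R1 libraries, the YAP1-TFE3 libraries lay on both sides of them, and it fell in both groups (log2 fold change -1.74 ± 0.40 (SE), edgeR adjusted p = 0.00393 in YAP1-MAMLD1-dR3R1; log2 fold change -1.96 ± 0.41 (SE), edgeR adjusted p = 0.00161 in YAP1-TFE3). In YAP1-TFE3 tumours it was the most abundant of the 41 genes per kilobase of exon, at 9.83 CPM.

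Grik3, a low-affinity kainate subunit gene, measured 184, 111 and 100.3 CPM in naive cortex, 43.4, 63.2 and 98.7 in YAP1-MAMLD1-dR3R1 tumours, 69.3, 151 and 30.8 in YAP1-FAM118B tumours and 10.2, 35.6 and 19.0 in YAP1-TFE3 tumours. Its YAP1-MAMLD1-dR3R1 libraries lay below the naive range, replicate 3 by little, its YAP1-FAM118B libraries overlapped it, and it did not pass in either (log2 fold change -0.95 ± 0.59 (SE), edgeR adjusted p = 0.187 and log2 fold change -0.65 ± 0.59 (SE), edgeR adjusted p = 0.421), while it fell in YAP1-TFE3 tumours (log2 fold change -2.61 ± 0.63 (SE), edgeR adjusted p = 0.0039). Grik2, whose RNA is edited like that of Gria2, measured 55.0, 54.7 and 59.2 CPM in naive cortex, 22.7, 19.7 and 15.03 in YAP1-MAMLD1-dR3R1 tumours, 19.2, 42.8 and 14.8 in YAP1-FAM118B tumours and 1.49, 4.08 and 1.996 in YAP1-TFE3 tumours. It was lower in YAP1-TFE3 than in YAP1-MAMLD1-dR3R1 tumours (log2 fold change -2.92 ± 0.46 (SE), edgeR adjusted p = 0.000912). Grik1, a subunit gene of many interneurons, measured 17.9, 18.3 and 26.4 CPM in naive cortex, 7.10, 7.39 and 3.77 in YAP1-MAMLD1-dR3R1 tumours, 9.52, 15.4 and 3.92 in YAP1-FAM118B tumours and 0.145, 2.93 and 1.67 in YAP1-TFE3 tumours. It had a log2 fold change of -1.78 ± 0.75 (SE) in YAP1-MAMLD1-dR3R1 tumours (edgeR adjusted p = 0.0594, passing without YAP1-TFE3 replicate 1 (adjusted p = 0.011) or YAP1-TFE3 replicate 2 (adjusted p = 0.0398)) and -3.71 in YAP1-TFE3 tumours.

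Grik4, the gene of the other high-affinity kainate subunit, measured 30.1, 33.9 and 36.8 CPM in naive cortex, 7.84, 13.6 and 15.1 in YAP1-MAMLD1-dR3R1 tumours, 10.3, 15.3 and 10.1 in YAP1-FAM118B tumours and 1.16, 3.77 and 3.02 in YAP1-TFE3 tumours. It fell in all 3 fusions, with log2 fold changes of -1.46 ± 0.39 (SE) in YAP1-MAMLD1-dR3R1, -1.49 ± 0.39 (SE) in YAP1-FAM118B tumours and -3.66 ± 0.42 (SE) with YAP1-TFE3 (edgeR adjusted p = 0.00782, 0.0162 and 4.39e-05). The YAP1-MAMLD1-dR3R1 and YAP1-FAM118B libraries overlapped, and the YAP1-FAM118B call ended without YAP1-FAM118B replicate 1 (adjusted p = 0.068) or YAP1-FAM118B replicate 3 (adjusted p = 0.0688).

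The 7 NMDA receptor genes included Grin2a and Grin2b, with the lowest log2 fold changes of the AMPA, kainate, NMDA and delta genes in YAP1-MAMLD1-dR3R1 and YAP1-TFE3 tumours, and Grin3b, the only one of the 41 that rose in any comparison with naive cortex. Their summed level was 19.9, 12.4 and 8.12% of the naive mean in YAP1-MAMLD1-dR3R1 tumours, 49.6, 67.9 and 40.7% in YAP1-FAM118B tumours and 2.22, 11.9 and 4.21% in YAP1-TFE3 tumours. Grin1, which encodes the subunit that every NMDA receptor needs, measured 489, 449 and 369 CPM in naive cortex, 67.8, 42.8 and 3.81 in YAP1-MAMLD1-dR3R1 tumours, 243, 306 and 190.1 in YAP1-FAM118B tumours and 6.17, 45.2 and 14.0 in YAP1-TFE3 tumours. It was lowest in YAP1-MAMLD1-dR3R1 replicate 3. It was low in all YAP1-TFE3 tumours. Grin1os, an antisense gene that shares 1307 exon bases with it, measured 179.7 ± 27.0 CPM (SD, n = 3) in naive cortex, 15.1 ± 12.2 in YAP1-MAMLD1-dR3R1, 105 ± 20.9 in YAP1-FAM118B tumours and 8.75 ± 7.64 in YAP1-TFE3 tumours. As the strand setting of the counting is not given in the sources used here, reads of the overlap cannot be told apart.

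Grin2a and Grin2b encode the glutamate-binding subunits of forebrain NMDA receptors, Grin2b mainly early in development and Grin2a later. Grin2a measured 46.9, 35.2 and 32.8 CPM in naive cortex, 7.07, 1.35 and 0 in YAP1-MAMLD1-dR3R1 tumours, 11.4, 23.8 and 15.96 in YAP1-FAM118B tumours and 0, 3.10 and 0.0464 in YAP1-TFE3 tumours. Grin2b measured 100.1, 67.8 and 90.3 CPM in naive cortex, 15.5, 1.98 and 0.266 in YAP1-MAMLD1-dR3R1 tumours, 27.2, 56.6 and 32.7 in YAP1-FAM118B tumours and 0.338, 7.31 and 0.139 in YAP1-TFE3 tumours. Both were almost lost in YAP1-MAMLD1-dR3R1 replicate 3 and in YAP1-TFE3 replicates 1 and 3, where Grin2a had counts of 0, 0 and 1 and Grin2b counts of 6, 7 and 3. In YAP1-FAM118B tumours, the log2 ratio of Grin2b to Grin2a counts, with 0.5 added to each, was 1.26, 1.25 and 1.03, and in naive cortex it was 1.09, 0.95 and 1.46. The difference of 0.0124 was within the spread between libraries (two-sided exact permutation p = 1, where 3 against 3 libraries cannot go below 0.1). In YAP1-MAMLD1-dR3R1 tumours it was 1.13, 0.54 and 3.70 and in YAP1-TFE3 tumours 3.91, 1.23 and 1.22, where the high values belong to libraries with Grin2a at 0. The differences were 0.63 and 0.95 (exact permutation p = 0.8 and 0.4).

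Grin2c, a subunit gene of astrocytes and cerebellar granule cells, measured 41.5, 46.8 and 47.5 CPM in naive cortex, 12.3, 5.32 and 0.798 in YAP1-MAMLD1-dR3R1 tumours, 31.2, 30.1 and 19.0 in YAP1-FAM118B tumours and 0.193, 13.4 and 2.51 in YAP1-TFE3 tumours. YAP1-TFE3 replicate 2 was the highest of its group, and the call in YAP1-TFE3 tumours (log2 fold change -3.07 ± 1.14 (SE), edgeR adjusted p = 0.0333) ended without YAP1-TFE3 replicate 3 (adjusted p = 0.0908), naive replicate 1 (adjusted p = 0.055), naive replicate 2 (adjusted p = 0.0622) or naive replicate 3 (adjusted p = 0.0612). Grin2d, a subunit gene of interneurons and of the diencephalon, measured 15.6, 17.1 and 22.6 CPM in naive cortex, 3.80, 3.14 and 2.04 in YAP1-MAMLD1-dR3R1 tumours, 10.9, 8.73 and 8.95 in YAP1-FAM118B tumours and 2.75, 4.48 and 2.14 in YAP1-TFE3 tumours. It fell in all 3 fusions, with overlapping libraries in YAP1-MAMLD1-dR3R1 and YAP1-TFE3 (log2 fold change -2.62 ± 0.33 (SE), edgeR adjusted p = 0.000107 and log2 fold change -2.56 ± 0.33 (SE), edgeR adjusted p = 8.16e-05), and was higher in YAP1-FAM118B than in YAP1-MAMLD1-dR3R1 tumours (log2 fold change 1.67 ± 0.32 (SE), edgeR adjusted p = 0.00909).

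Grin3a, whose product lowers calcium entry through NMDA receptors, measured 67.4, 68.9 and 98.1 CPM in naive cortex, 31.5, 30.4 and 47.6 in YAP1-MAMLD1-dR3R1 tumours, 23.5, 51.0 and 17.9 in YAP1-FAM118B tumours and 1.25, 7.23 and 5.76 in YAP1-TFE3 tumours. Its YAP1-MAMLD1-dR3R1 libraries lay below the naive libraries and above all YAP1-TFE3 libraries, with a log2 fold change of -2.94 ± 0.59 (SE) between YAP1-TFE3 and YAP1-MAMLD1-dR3R1 (edgeR adjusted p = 0.00344). Against naive cortex it fell in YAP1-TFE3 tumours (log2 fold change -4.04 ± 0.62 (SE), edgeR adjusted p = 0.000247) and did not pass in YAP1-MAMLD1-dR3R1 tumours (log2 fold change -1.10 ± 0.55 (SE), adjusted p = 0.103; without YAP1-TFE3 replicate 1 (adjusted p = 0.0215)).

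Grin3b encodes a further NMDA subunit, best known from motor neurons, and lies on the plus strand of chr10:79970715-79977190 (GRCm38). It measured 1.11, 2.30 and 0.748 CPM in naive cortex, 1.86, 2.56 and 2.53 in YAP1-MAMLD1-dR3R1 tumours, 0.985, 1.43 and 1.94 in YAP1-FAM118B tumours and 4.92, 3.06 and 5.01 in YAP1-TFE3 tumours. All 3 YAP1-TFE3 libraries lay above all 9 others, and the naive, YAP1-MAMLD1-dR3R1 and YAP1-FAM118B libraries overlapped. It rose in YAP1-TFE3 tumours against naive cortex (log2 fold change 1.64 ± 0.45 (SE), edgeR adjusted p = 0.00801), a call that ended without naive replicate 1 (adjusted p = 0.0527), and was higher than in YAP1-FAM118B tumours (log2 fold change 1.58 ± 0.45 (SE), edgeR adjusted p = 0.0146), a call that ended without YAP1-FAM118B replicate 1 (adjusted p = 0.0583), YAP1-TFE3 replicate 1 (adjusted p = 0.077) or YAP1-TFE3 replicate 3 (adjusted p = 0.0668). Against YAP1-MAMLD1-dR3R1 tumours it did not pass (log2 fold change 0.90 ± 0.44 (SE), edgeR adjusted p = 0.128). Per kilobase of exon it was the lowest of the 41 genes in naive cortex, at 0.421 CPM, and was at 1.31 CPM in YAP1-TFE3 tumours.

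Its exons share 1059 bases, 32.1% of their length, with Tmem259, a gene on the opposite strand. Tmem259 was at 90.0 ± 8.59 CPM (SD, n = 3) in naive cortex, 91.8 ± 5.501 in YAP1-MAMLD1-dR3R1, 93.7 ± 2.62 in YAP1-FAM118B tumours and 142 ± 15.3 in YAP1-TFE3 tumours. It rose in YAP1-TFE3 tumours against naive cortex (log2 fold change 0.65 ± 0.11 (SE), edgeR adjusted p = 0.000602). Because the strand setting is not given in the sources used here, reads of both genes in the overlap cannot be told apart, and the part of Tmem259 reads in the Grin3b rise was not tested.

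The RefSeq promoter window of Grin3b is shown because it is the exception among the receptor genes. The window covers 250 bases before to 50 after the start on the plus strand of chr10:79970474-79970773 (GRCm38.p6). The capitals mark TGATTCA, a match to TGANTCA, the pattern searched for AP-1, in which N is any base.

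Grin3b: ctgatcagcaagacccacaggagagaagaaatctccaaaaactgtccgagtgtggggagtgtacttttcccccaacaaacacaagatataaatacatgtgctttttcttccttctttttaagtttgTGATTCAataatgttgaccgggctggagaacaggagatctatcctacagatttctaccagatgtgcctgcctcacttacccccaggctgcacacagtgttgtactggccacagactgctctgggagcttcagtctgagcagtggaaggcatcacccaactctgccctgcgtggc

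These windows were found for 26 of the 41 genes, with 33 windows in all, and 4 motifs were searched on both strands. TGANTCA was in the windows of 2 genes, Grin3b and Grm8, and in 8.97% of all genes with windows. GGAATG, the letters bound by TEAD, the DNA-binding partner of YAP1, was in those of 6 genes (Gabra3, Gabrb1, Gabrb2, Grin1, Grm7 and Grm8) and in 16.6% of all genes. CACGTG, the E-box bound by TFE3, was in that of 1 gene, Grin1, and in 8.09% of all genes. CAGCACC, letters from the element bound by the neuronal gene repressor REST, was in those of 2 genes, Gabrq and Grm2, and in 8.14% of all genes. No match in the windows printed here overlaps one of another motif. A match describes letters and is not a binding site.

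Grid1 encodes a delta receptor, a synapse organiser that does not open with glutamate. It measured 69.5, 76.2 and 68.8 CPM in naive cortex, 16.9, 15.7 and 17.6 in YAP1-MAMLD1-dR3R1 tumours, 31.6, 49.0 and 27.0 in YAP1-FAM118B tumours and 2.84, 8.60 and 2.46 in YAP1-TFE3 tumours. Its 3 YAP1-MAMLD1-dR3R1 libraries were nearly equal, and it fell in YAP1-MAMLD1-dR3R1 and further in YAP1-TFE3 tumours (log2 fold change -2.10 ± 0.42 (SE), edgeR adjusted p = 0.00172 and log2 fold change -3.94 ± 0.46 (SE), edgeR adjusted p = 4.39e-05). It was also lower in YAP1-TFE3 than in YAP1-MAMLD1-dR3R1 tumours (log2 fold change -1.85 ± 0.42 (SE), edgeR adjusted p = 0.00688).

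Among the metabotropic glutamate receptor genes, the group I gene Grm5 measured 223, 267 and 208 CPM in naive cortex, 49.2, 43.5 and 28.6 in YAP1-MAMLD1-dR3R1 tumours, 99.8, 208 and 75.6 in YAP1-FAM118B tumours and 1.16, 21.6 and 4.50 in YAP1-TFE3 tumours. Its YAP1-MAMLD1-dR3R1 and YAP1-TFE3 libraries all lay below the naive ones. The Grm5 call in YAP1-MAMLD1-dR3R1 tumours (log2 fold change -2.52 ± 0.81 (SE), edgeR adjusted p = 0.02) ended without YAP1-MAMLD1-dR3R1 replicate 2 (adjusted p = 0.0581) or YAP1-MAMLD1-dR3R1 replicate 3 (adjusted p = 0.0717).

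The group II genes Grm2 and Grm3 encode presynaptic and glial receptors that limit glutamate release. Grm2 measured 78.6, 63.9 and 41.3 CPM in naive cortex, 6.33, 2.42 and 0.399 in YAP1-MAMLD1-dR3R1 tumours, 27.7, 34.5 and 27.5 in YAP1-FAM118B tumours and 0.0482, 2.39 and 0.0928 in YAP1-TFE3 tumours. It had the lowest log2 fold change of the 41 genes in YAP1-MAMLD1-dR3R1 tumours (log2 fold change -4.32 ± 1.11 (SE), edgeR adjusted p = 0.00699) and one of the lowest in YAP1-TFE3 tumours (log2 fold change -6.15 ± 1.24 (SE), edgeR adjusted p = 0.00139). Grm3 measured 91.1, 71.9 and 54.6 CPM in naive cortex, 12.2, 8.65 and 1.82 in YAP1-MAMLD1-dR3R1 tumours, 41.1, 51.2 and 23.6 in YAP1-FAM118B tumours and 1.21, 4.39 and 0.650 in YAP1-TFE3 tumours. It fell too, with log2 fold changes of -3.26 and -5.11 in YAP1-MAMLD1-dR3R1 and YAP1-TFE3 tumours (edgeR adjusted p = 0.00412 and 0.000396). Both were higher in YAP1-FAM118B than in YAP1-MAMLD1-dR3R1 tumours (log2 fold change 3.28 ± 1.07 (SE) and 2.35 ± 0.74 (SE), adjusted p = 0.0465 and 0.0416), but neither of these calls held without each library in turn.

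The group III genes encode receptors at the active zone of presynaptic terminals. Grm4 measured 29.1, 34.6 and 55.1 CPM in naive cortex, 4.78, 2.996 and 0.222 in YAP1-MAMLD1-dR3R1 tumours, 20.5, 32.6 and 12.6 in YAP1-FAM118B tumours and 0.434, 2.39 and 0.511 in YAP1-TFE3 tumours. Grm7 measured 59.3, 58.0 and 61.4 CPM in naive cortex, 9.28, 7.34 and 1.68 in YAP1-MAMLD1-dR3R1 tumours, 29.1, 42.3 and 22.9 in YAP1-FAM118B tumours and 0.916, 7.05 and 0.789 in YAP1-TFE3 tumours. Grm8 measured 28.6, 15.997 and 17.7 CPM in naive cortex, 2.14, 1.498 and 0.399 in YAP1-MAMLD1-dR3R1 tumours, 6.77, 16.8 and 4.89 in YAP1-FAM118B tumours and 0.0964, 1.42 and 0.232 in YAP1-TFE3 tumours. All 3 were lower in every YAP1-MAMLD1-dR3R1 and YAP1-TFE3 library than in every naive library, and the YAP1-FAM118B libraries overlapped the naive range for Grm4 and Grm8. Their log2 fold changes were -3.89, -3.28 and -3.94 in YAP1-MAMLD1-dR3R1 tumours, -0.85, -0.92 and -1.13 in YAP1-FAM118B tumours and -5.14, -4.34 and -5.13 in YAP1-TFE3 tumours.

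Among the GABA receptor genes, the alpha subunit genes set the pharmacology and location of GABA-A receptors. Gabra2, more prominent early in development and at the axon initial segment, measured 109.9, 133 and 129 CPM in naive cortex, 40.96, 23.4 and 7.67 in YAP1-MAMLD1-dR3R1 tumours, 46.3, 88.8 and 41.2 in YAP1-FAM118B tumours and 0.916, 16.8 and 2.37 in YAP1-TFE3 tumours. Gabra3 measured 231, 158 and 143 CPM in naive cortex, 18.1, 19.1 and 8.07 in YAP1-MAMLD1-dR3R1 tumours, 83.3, 126 and 72.9 in YAP1-FAM118B tumours and 0.579, 19.1 and 2.32 in YAP1-TFE3 tumours. The YAP1-FAM118B libraries lay below the naive ones for both, and YAP1-TFE3 replicate 2 lay above the other YAP1-TFE3 libraries.

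A second pair, Gria1 to Gria2, bears on the calcium permeability of AMPA receptors. Its log2 ratio was -0.62, -0.13 and 0.46 in naive cortex, 0.69, 0.68 and 0.09 in YAP1-MAMLD1-dR3R1 tumours, -0.82, -0.42 and -0.85 in YAP1-FAM118B tumours and 0.02, -0.14 and 0.07 in YAP1-TFE3 tumours. The naive libraries alone covered most of this range. The differences from naive were 0.58, -0.60 and 0.08 (two-sided exact permutation p = 0.2, 0.2 and 0.8). Ratios of 3 gene pairs were computed in 3 fusions, 2 of the pairs are given here, and none could reach 0.05 with this number of libraries.

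**Figure D3:**
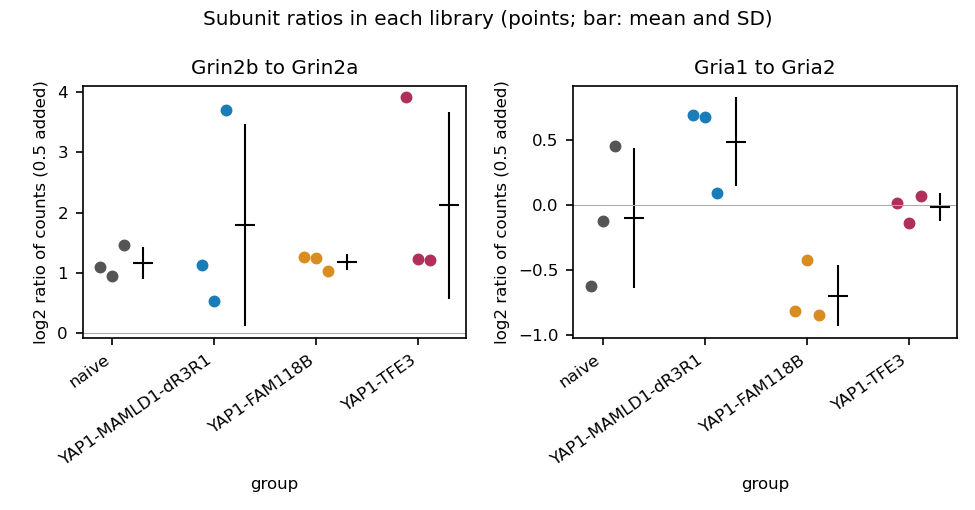
Log2 ratio of counts (0.5 added to each) of Grin2b to Grin2a and Gria1 to Gria2 in each library, with points for libraries and bars for group mean and SD. For Grin2b to Grin2a, YAP1-MAMLD1-dR3R1 replicate 3 and YAP1-TFE3 replicate 1 stand highest, at 3.70 and 3.91, and in both panels points of every fusion overlap or adjoin the naive ones.

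Gabra4, a partner of delta subunits in extrasynaptic receptors, measured 172, 151 and 192 CPM in naive cortex, 26.3, 15.03 and 1.29 in YAP1-MAMLD1-dR3R1 tumours, 86.3, 120.5 and 91.1 in YAP1-FAM118B tumours and 1.49, 12.01 and 0.371 in YAP1-TFE3 tumours. Gabra5, a subunit gene best known from hippocampal pyramidal cells, measured 71.2, 105 and 84.9 CPM in naive cortex, 15.1, 2.13 and 25.4 in YAP1-MAMLD1-dR3R1 tumours, 17.6, 43.9 and 21.3 in YAP1-FAM118B tumours and 0.868, 5.90 and 1.81 in YAP1-TFE3 tumours. The 3 YAP1-MAMLD1-dR3R1 libraries differed in opposite ways for these genes: replicate 3 was the highest for Gabra5 and the lowest for Gabra4. The Gabra5 log2 fold change was -2.61 ± 0.84 (SE) in YAP1-MAMLD1-dR3R1 tumours (edgeR adjusted p = 0.0202) and -4.92 ± 0.94 (SE) in YAP1-TFE3 tumours (adjusted p = 0.00102).

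The beta subunit genes encode the subunits that, with alpha, form the GABA binding sites. Gabrb2, the main adult cortical beta gene, measured 496, 361 and 443 CPM in naive cortex, 66.2, 38.0 and 19.3 in YAP1-MAMLD1-dR3R1 tumours, 209, 274 and 195 in YAP1-FAM118B tumours and 0.868, 26.6 and 1.81 in YAP1-TFE3 tumours. Gabrb1 measured 30.7, 24.7 and 36.0 CPM in naive cortex, 13.2, 4.45 and 0.887 in YAP1-MAMLD1-dR3R1 tumours, 9.32, 16.2 and 9.87 in YAP1-FAM118B tumours and 0.964, 3.63 and 1.35 in YAP1-TFE3 tumours. In YAP1-MAMLD1-dR3R1 replicate 3 Gabrb1 and Gabrb2 were the lowest of their group.

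Among the gamma subunit genes, Gabrg1, which glia also express, measured 37.5, 36.3 and 56.3 CPM in naive cortex, 11.5, 16.6 and 7.76 in YAP1-MAMLD1-dR3R1 tumours, 11.2, 23.1 and 9.59 in YAP1-FAM118B tumours and 1.16, 2.84 and 2.46 in YAP1-TFE3 tumours. Gabrg3 measured 8.78, 7.71 and 9.06 CPM in naive cortex, 1.05, 1.11 and 0.488 in YAP1-MAMLD1-dR3R1 tumours, 2.504, 5.67 and 3.04 in YAP1-FAM118B tumours and 0, 0.355 and 0.186 in YAP1-TFE3 tumours. Gabrg1 fell in all 3 fusions (log2 fold change -1.86 ± 0.43 (SE), edgeR adjusted p = 0.00415 in YAP1-MAMLD1-dR3R1; log2 fold change -1.57 ± 0.43 (SE), edgeR adjusted p = 0.0212 in YAP1-FAM118B; log2 fold change -4.33 ± 0.49 (SE), edgeR adjusted p = 3.7e-05 in YAP1-TFE3). The YAP1-FAM118B call of Gabrg1 ended without YAP1-FAM118B replicate 1 (adjusted p = 0.0872), YAP1-FAM118B replicate 3 (adjusted p = 0.0866) or naive replicate 3 (adjusted p = 0.074). Gabrg1 was lower in YAP1-TFE3 than in YAP1-MAMLD1-dR3R1 tumours (log2 fold change -2.47 ± 0.46 (SE), edgeR adjusted p = 0.00222).

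The delta, epsilon and theta subunit genes had widely different log2 fold changes in YAP1-FAM118B tumours. Gabrd, the delta subunit gene of tonic inhibition, measured 62.8, 56.4 and 55.5 CPM in naive cortex, 7.88, 10.3 and 0.0443 in YAP1-MAMLD1-dR3R1 tumours, 50.9, 55.9 and 35.4 in YAP1-FAM118B tumours and 0.386, 1.77 and 0 in YAP1-TFE3 tumours. Its YAP1-FAM118B libraries overlapped the naive range (log2 fold change -0.30 ± 1.07 (SE), edgeR adjusted p = 0.845), and it had the lowest log2 fold change of the 41 genes in YAP1-TFE3 tumours (log2 fold change -6.31 ± 1.39 (SE), edgeR adjusted p = 0.00239). Gabre, the epsilon subunit gene, measured 6.40, 2.68 and 7.70 CPM in naive cortex, 0.621, 0.531 and 0.0443 in YAP1-MAMLD1-dR3R1 tumours, 0.452, 0.462 and 0.369 in YAP1-FAM118B tumours and 0.0482, 1.86 and 0.604 in YAP1-TFE3 tumours. Gabrq, the theta subunit gene, measured 19.0, 10.2 and 39.1 CPM in naive cortex, 0.155, 4.54 and 0.222 in YAP1-MAMLD1-dR3R1 tumours, 0.205, 0.504 and 0.0922 in YAP1-FAM118B tumours and 0, 0.0887 and 1.86 in YAP1-TFE3 tumours. Both are best known from the hypothalamus and brain stem, and both were low in all YAP1-FAM118B libraries.

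In YAP1-FAM118B tumours Gabrq and Gabre had log2 fold changes of -6.37 ± 1.73 (SE) and -3.69 ± 1.05 (SE) (edgeR adjusted p = 0.0203 and 0.0249), beside a median of -1.02 over the 41 genes. The Gabrq call ended without YAP1-FAM118B replicate 1 (adjusted p = 0.0821), YAP1-FAM118B replicate 3 (adjusted p = 0.083) or naive replicate 3 (adjusted p = 0.0559). The Gabre call ended without YAP1-FAM118B replicate 1 (adjusted p = 0.0857), YAP1-FAM118B replicate 2 (adjusted p = 0.0557), YAP1-FAM118B replicate 3 (adjusted p = 0.0928), naive replicate 1 (adjusted p = 0.0713) or naive replicate 3 (adjusted p = 0.0676). The hypothalamus markers were lower in the tumours as well: their summed level was 121 to 390.4 CPM in naive cortex, 9.63 to 33.7 in YAP1-MAMLD1-dR3R1, 2.81 to 19.2 in YAP1-FAM118B tumours and 8.20 to 34.2 in YAP1-TFE3 tumours, and of 11 tested 8, 8 and 9 fell, beside 28.8, 8.45 and 30.0% of all genes. Nkx2-4 was at 0 in all libraries of each fusion. The part of this regional difference in the levels of Gabrq and Gabre was not tested.

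The promoter window of Gabrq (RefSeq, GRCm38.p6, chrX:72824928-72825227, plus strand) is shown because this gene had the lowest log2 fold change in YAP1-FAM118B tumours. The capitals mark GGTGCTG, the reverse complement of CAGCACC.

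Gabrq: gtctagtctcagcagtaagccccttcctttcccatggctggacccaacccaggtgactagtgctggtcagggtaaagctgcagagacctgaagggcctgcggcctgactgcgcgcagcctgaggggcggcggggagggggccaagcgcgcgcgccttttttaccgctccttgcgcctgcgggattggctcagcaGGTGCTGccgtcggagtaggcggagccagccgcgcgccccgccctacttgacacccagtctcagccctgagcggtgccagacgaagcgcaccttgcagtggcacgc

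The GABA-B genes summed to 17.3, 11.5 and 4.05% of the naive mean in YAP1-MAMLD1-dR3R1 tumours, 45.7, 60.04 and 39.7% in YAP1-FAM118B tumours and 2.73, 11.8 and 2.17% in YAP1-TFE3 tumours. Gabbr1, whose product binds GABA, measured 826, 782 and 863 CPM in naive cortex, 164, 111 and 40.6 in YAP1-MAMLD1-dR3R1 tumours, 384, 524 and 309 in YAP1-FAM118B tumours and 30.3, 101 and 22.005 in YAP1-TFE3 tumours, and it was the most abundant of the 41 genes per kilobase of exon in naive cortex, at 106 CPM. Gabbr2, whose product couples to the G protein, measured 356, 258 and 331 CPM in naive cortex, 33.5, 19.3 and 5.54 in YAP1-MAMLD1-dR3R1 tumours, 137, 159 and 143 in YAP1-FAM118B tumours and 0.771, 33.1 and 2.65 in YAP1-TFE3 tumours. The members of this obligate pair were reduced to different degrees in these libraries. Gabbr1 had log2 fold changes of -2.97 ± 0.63 (SE) in YAP1-MAMLD1-dR3R1 and -4.01 ± 0.66 (SE) in YAP1-TFE3 tumours, and Gabbr2 of -4.02 ± 1.15 (SE) and -4.69 ± 1.19 (SE). The difference between the genes was not tested. Gabbr1 was higher in YAP1-FAM118B than in YAP1-MAMLD1-dR3R1 tumours (log2 fold change 1.95 ± 0.60 (SE), edgeR adjusted p = 0.0402), a call that ended without YAP1-FAM118B replicate 1 (adjusted p = 0.083), YAP1-FAM118B replicate 2 (adjusted p = 0.109), YAP1-FAM118B replicate 3 (adjusted p = 0.0554), YAP1-MAMLD1-dR3R1 replicate 2 (adjusted p = 0.111), YAP1-MAMLD1-dR3R1 replicate 3 (adjusted p = 0.116), naive replicate 1 (adjusted p = 0.0622), naive replicate 2 (adjusted p = 0.0588) or naive replicate 3 (adjusted p = 0.0555).

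Ordered by CPM per kilobase of exon, which allows levels to be compared between genes, naive cortex was led by Gabbr1 at 106, Gria1 at 92.1 and Gabrb2 at 68.2. Gabbr1 at 52.2 and Gria1 at 37.3 also led in YAP1-FAM118B tumours, where Gabrb2 was at 35.6. In YAP1-MAMLD1-dR3R1 tumours the order opened with Gria1 at 20.3, Gabbr1 at 13.5, Gria4 at 11.9 and Grik5 at 11.5. In YAP1-TFE3 tumours it opened with Grik5 at 9.83, Gria3 at 6.87, Gabbr1 at 6.58 and Gria1 at 3.59. GABA-A subunit genes thus stood among the first 4 in naive cortex and YAP1-FAM118B tumours and not in YAP1-MAMLD1-dR3R1 or YAP1-TFE3 tumours.

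Most GABA-A subunit genes lie in clusters, and the log2 fold changes of neighbours are set side by side here, with no test between genes. On chromosome 5, Gabrg1, Gabra2, Gabra4 and Gabrb1 lie between bases 70751047 and 72149037 (GRCm38), with log2 fold changes of -1.86, -2.37, -3.59 and -2.29 in YAP1-MAMLD1-dR3R1 tumours and -4.33, -4.21, -5.21 and -3.93 in YAP1-TFE3 tumours. On chromosome 7, Gabrg3 and Gabra5 lie between 56716465 and 57510059, with -3.26 and -2.61 in YAP1-MAMLD1-dR3R1 tumours and -5.503 and -4.92 in YAP1-TFE3 tumours. On the X chromosome, Gabre, Gabra3 and Gabrq lie between 72255999 and 72842602, with -3.69, -0.92 and -6.37 in YAP1-FAM118B tumours. In YAP1-FAM118B tumours the chromosome 5 genes had -1.57 to -0.79, and the chromosome 7 genes given here -1.19 and -1.65. Among these, the X genes thus spread most widely in that fusion. In YAP1-MAMLD1-dR3R1 tumours the X genes had -3.79, -3.56 and -3.81, and in YAP1-TFE3 tumours -2.725, -4.59 and -5.12. Gabra3 lies between Gabre and Gabrq.

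**Figure D4:**
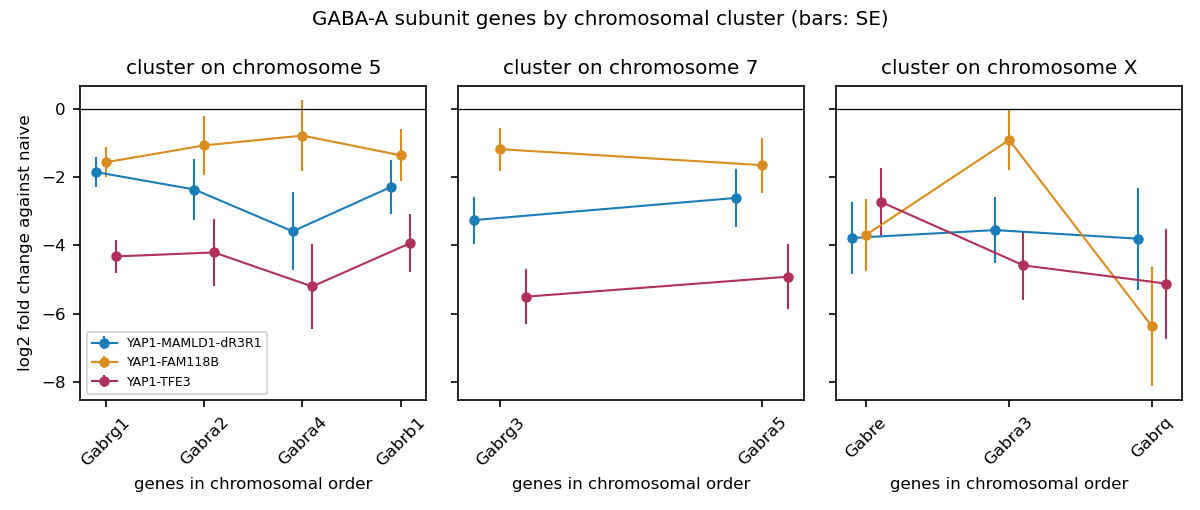
Log2 fold change against naive cortex of the GABA-A subunit genes in their order along 3 chromosomes, with a line for each fusion and SE bars. The YAP1-FAM118B line is near -1 in the clusters of chromosomes 5 and 7 and drops at Gabre and Gabrq on the X chromosome.

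Gabra4 and Gabrb1 lie on opposite strands, with annotated starts 195 bases apart (GENCODE, GRCm38), and 46 exon bases overlap. Both fell, with log2 fold changes of -3.59 ± 1.14 (SE) and -2.29 ± 0.78 (SE) in YAP1-MAMLD1-dR3R1 and -5.21 ± 1.24 (SE) and -3.93 ± 0.85 (SE) in YAP1-TFE3 tumours, and in YAP1-FAM118B tumours, where neither passed, they had -0.79 and -1.37. The difference between the genes was not tested. The YAP1-MAMLD1-dR3R1 call of Gabra4 (edgeR adjusted p = 0.0193) ended without YAP1-MAMLD1-dR3R1 replicate 2 (adjusted p = 0.0628), and that of Gabrb1 (adjusted p = 0.0265) without YAP1-MAMLD1-dR3R1 replicate 2 (adjusted p = 0.0909), naive replicate 1 (adjusted p = 0.0573) or naive replicate 3 (adjusted p = 0.0616). Their promoter windows (RefSeq, GRCm38.p6) are shown because these annotated starts lie close together. Gabra4 is given from the minus strand of chr5:71658259-71658558 and Gabrb1 from the plus strand of chr5:71657671-71657970. The windows do not overlap, and the bases between them are not shown. The Gabrb1 window ends before the GENCODE start of that gene at base 71658113. Neither window shown holds any of the 4 motifs, so no base is in capitals. Gabrb1 has a further RefSeq window (chr5:71699682-71699981), not printed here, which holds the GGAATG match counted above.

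Gabra4: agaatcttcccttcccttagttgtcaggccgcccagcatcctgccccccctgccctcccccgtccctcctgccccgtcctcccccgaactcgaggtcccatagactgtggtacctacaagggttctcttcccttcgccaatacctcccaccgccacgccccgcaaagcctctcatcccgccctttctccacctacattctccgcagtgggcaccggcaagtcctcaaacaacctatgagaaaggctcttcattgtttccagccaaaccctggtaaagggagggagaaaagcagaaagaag
Gabrb1: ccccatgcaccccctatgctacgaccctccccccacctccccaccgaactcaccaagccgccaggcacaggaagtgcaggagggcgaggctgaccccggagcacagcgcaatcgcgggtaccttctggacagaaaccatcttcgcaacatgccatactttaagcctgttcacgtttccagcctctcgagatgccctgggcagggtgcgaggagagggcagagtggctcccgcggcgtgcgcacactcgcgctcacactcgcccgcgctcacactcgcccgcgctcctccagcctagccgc

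The receptor genes were set beside 16 neuron marker genes, none of them a receptor. The neuron genes had a median log2 difference from the naive mean of -2.46, -2.99 and -5.26 in the YAP1-MAMLD1-dR3R1 libraries, -0.90, -0.57 and -1.28 in the YAP1-FAM118B libraries and -6.79, -3.15 and -5.84 in the YAP1-TFE3 libraries. The receptor genes had medians of -2.33, -2.88 and -4.37 in the YAP1-MAMLD1-dR3R1 libraries, -1.10, -0.55 and -1.38 in the YAP1-FAM118B libraries and -6.47, -3.35 and -5.50 in the YAP1-TFE3 libraries. The 9 tumour libraries took the same order by either list, with YAP1-MAMLD1-dR3R1 replicate 3 lowest and YAP1-TFE3 replicate 2 highest within their groups. Of the neuron genes 12, 1 and 16 fell in the 3 fusions, in the order YAP1-MAMLD1-dR3R1, YAP1-FAM118B, YAP1-TFE3, beside 28.8, 8.45 and 30.0% of all genes tested. The 1 in YAP1-FAM118B was near that share. The summed level of the neuron genes was 9586 to 11815 CPM in naive cortex, 729.5 to 1968 in YAP1-MAMLD1-dR3R1, 4677 to 7238 in YAP1-FAM118B tumours and 366 to 1382 in YAP1-TFE3 tumours, and none of them was at 0 in any library. Their part in the receptor levels was not tested.

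**Figure D5:**
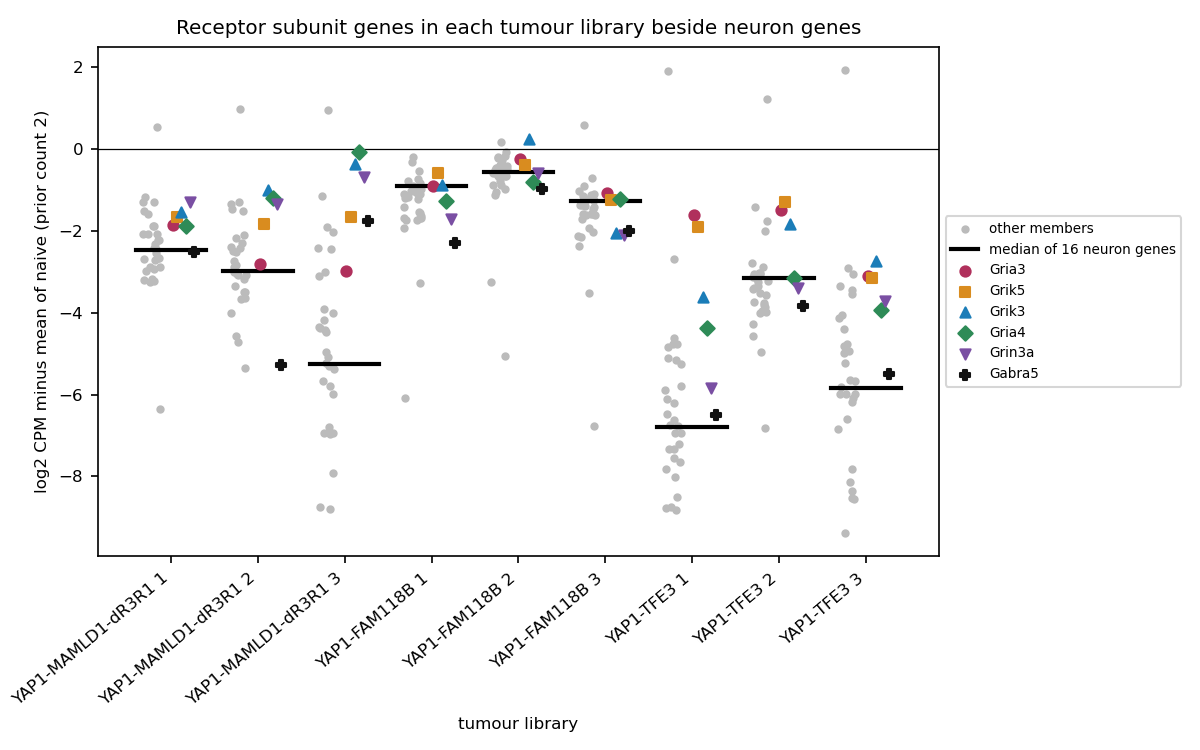
Log2 CPM (prior count 2) minus the naive mean of 36 receptor genes in each tumour library, where grey points are the other receptor genes, coloured symbols are 6 named genes and black bars are the median of 16 neuron genes. The grey points follow the black bar from library to library, while Gria3 and Grik5 lie above it in YAP1-TFE3 and Gria4 and Grik3 lie above it in YAP1-MAMLD1-dR3R1 replicate 3.

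Against the neuron median, the genes least reduced in YAP1-MAMLD1-dR3R1 tumours included Grin3b, Grik3, Gria4, Grin3a and Grik4, at mean log2 differences of 4.40, 2.60, 2.52, 2.46 and 2.06 above it. The 3 most reduced were Grin2a, Grin2b and Grm2, at -1.73, -1.67 and -1.33. For Gria4 the difference by library was 0.57, 1.79 and 5.20, and for Grik3 it was 0.91, 1.98 and 4.90, so that both were largest in replicate 3, the library of that group with the fewest neuron transcripts. As the neuron median is subtracted, a low median by itself raises this difference for any gene that does not follow it. In YAP1-TFE3 tumours the genes least reduced were Grin3b, Gria3, Grik5, Grin2d, Grik3 and Gabre, at 6.95, 3.19, 3.14, 2.68, 2.53 and 2.07. For Gria3 the difference by library was 5.18, 1.66 and 2.73, and for Grik5 4.89, 1.85 and 2.69, again largest where the subtracted neuron median was lowest. The most reduced were Grm2, Gabrd and Gabrb2, at -1.98, -1.84 and -1.62. In YAP1-FAM118B tumours Gabrq and Gabre stood apart at -5.06 and -2.42. These differences are descriptions and were not tested.

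Other cell type lists moved with the groups too. The 12 microglia and macrophage genes had summed levels of 322 to 403 CPM in naive cortex, 8772 to 14015 in YAP1-MAMLD1-dR3R1, 2628 to 3154 in YAP1-FAM118B and 2103 to 6244 in YAP1-TFE3 tumours, and 12, 11 and 11 of them rose. The 12 astrocyte genes, to be read beside Grin2c and Grm3, summed to 2113 to 2439, 3901 to 6121, 980.3 to 2547 and 1953 to 3481 CPM, with 1 higher and 3 lower in YAP1-MAMLD1-dR3R1, 1 lower in YAP1-FAM118B and 4 higher and 7 lower in YAP1-TFE3 tumours. Only the 7 lower stood above the shares of all genes. The list's median log2 difference was below naive in every tumour library. It was -0.14, -0.25 and -0.68 in YAP1-MAMLD1-dR3R1, where the sums were above naive, -0.57, -0.35 and -1.14 in YAP1-FAM118B and -1.39, -0.87 and -1.65 in YAP1-TFE3. The 10 genes of fibroblasts and meninges summed to 119 to 215 CPM in naive cortex, 4558 to 8254 in YAP1-MAMLD1-dR3R1 tumours, 4883 to 24610.0 in YAP1-FAM118B tumours and 1668 to 4594 in YAP1-TFE3 tumours, and 7, 7 and 5 of them rose. The 5 in YAP1-TFE3 tumours were a share not far above the 40.6% of all genes. The 10 genes of myelinating oligodendrocytes summed to 6174 to 12314, 1973 to 4569, 2212 to 5252 and 599 to 957 CPM in the same order, and 6, 3 and 10 fell. Of 10 endothelial genes, with sums of 144 to 161, 300.3 to 545, 148 to 256 and 204 to 358 CPM, 8, 1 and 6 rose, the 1 in YAP1-FAM118B a share below the 21.3% of all genes. The 10 striatum genes summed to 765, 1891 and 257 CPM in the YAP1-FAM118B libraries, against 341 to 962 in naive cortex, 124 to 332 in YAP1-MAMLD1-dR3R1 tumours and 77.1 to 143 in YAP1-TFE3 tumours, where 1 of them was at 0 in a library, and 1, 0 and 7 fell in edgeR. The high value is that of YAP1-FAM118B replicate 2, which also had the highest median over the receptor genes and the lowest fibroblast sum of its group. None of the other genes of these lists was at 0 in any library. Their part in the receptor levels was not tested.

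Genes of the machinery around the receptors were counted in lists chosen for their known roles. Each count is to be read against all genes tested, of which 28.8, 8.45 and 30.0% fell and 34.4, 21.3 and 40.6% rose in the order YAP1-MAMLD1-dR3R1, YAP1-FAM118B, YAP1-TFE3, with medians of 0.06, -0.05 and 0.23. List medians follow in that order. Of 16 auxiliary proteins of AMPA and kainate receptors, 12 fell in YAP1-MAMLD1-dR3R1 and 14 in YAP1-TFE3 tumours, and 16 did not pass in YAP1-FAM118B tumours. The list's median log2 fold changes were -2.36, -0.73 and -3.56. Shisa9, a modulator of AMPA receptor desensitisation, had log2 fold changes of -3.10 ± 0.60 (SE) and -4.09 ± 0.63 (SE) in YAP1-MAMLD1-dR3R1 and YAP1-TFE3 (edgeR adjusted p = 0.0014 and 0.00026), and the kainate receptor partners Neto1 and Neto2 had -4.24 and -2.90 in YAP1-TFE3. The TARP genes Cacng7 and Cacng8 had -1.61 and -2.78 in YAP1-MAMLD1-dR3R1 tumours. Cpt1c and Shisa7, further AMPA receptor partners, had -1.03 in YAP1-MAMLD1-dR3R1 and -3.56 in YAP1-TFE3.

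Of 29 scaffolds and organisers of the glutamate synapse, 25 fell in YAP1-TFE3 tumours, 25 in YAP1-MAMLD1-dR3R1 and 3 in YAP1-FAM118B, the last a share near the 8.45% of all genes that fell there. The medians were -3.000, -0.73 and -3.64. Dlg3, a PSD-95 relative, fell in all 3 (-2.14, -0.70 and -1.58; edgeR adjusted p = 1.46e-05, 0.0141 and 3.7e-05), as did Pick1 and Dlgap4 (-0.66 and -0.51 in YAP1-FAM118B). Lrrtm2 and Shank3 had -4.36 and -4.16 in YAP1-TFE3 tumours. Homer3, the scaffold that links group I metabotropic receptors to calcium stores, rose against this majority, by 0.65 ± 0.22 (SE) in YAP1-MAMLD1-dR3R1 and 1.58 ± 0.23 in YAP1-TFE3 tumours (adjusted p = 0.0272 and 0.000174).

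Of 13 tested scaffolds and auxiliary proteins of the GABA synapse, 2 rose and 8 fell in YAP1-MAMLD1-dR3R1, 1 rose in YAP1-FAM118B, and 1 rose and 8 fell in YAP1-TFE3 tumours. The shares that rose were below the 34.4, 21.3 and 40.6% of all genes, and the medians were -1.38, -0.60 and -2.13. Gphn, which encodes the scaffold gephyrin, had -1.33 ± 0.21 (SE) in YAP1-MAMLD1-dR3R1 and -1.65 ± 0.21 (SE) in YAP1-TFE3 (edgeR adjusted p = 0.00043 and 8.52e-05). Slitrk3 and Nlgn2, adhesion proteins of inhibitory synapses, had -4.99 and -2.38 in YAP1-TFE3 tumours. Gabarap, which carries GABA-A receptors to the membrane and also serves autophagy in all cells, rose in each fusion (1.32 ± 0.14 (SE) in YAP1-MAMLD1-dR3R1, 0.88 ± 0.14 (SE) in YAP1-FAM118B tumours and 1.25 ± 0.14 (SE) with YAP1-TFE3; adjusted p = 4.94e-05, 0.00139 and 4.15e-05). Kctd12, an auxiliary subunit of GABA-B receptors, rose in YAP1-MAMLD1-dR3R1 (1.65 ± 0.49 (SE), adjusted p = 0.0142).

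For the transmitters themselves, 10 of 13 genes of glutamate synthesis and transport fell and 1 rose in YAP1-TFE3 tumours, 6 fell in YAP1-MAMLD1-dR3R1 and 3 in YAP1-FAM118B, beside 30.0, 28.8 and 8.45% of all genes. The medians were -1.96, -0.82 and -2.12 in the order YAP1-MAMLD1-dR3R1, YAP1-FAM118B, YAP1-TFE3. Slc17a6, a vesicular glutamate transporter, had -4.69 ± 0.79 (SE) in YAP1-MAMLD1-dR3R1, -2.36 ± 0.71 (SE) in YAP1-FAM118B tumours and -6.51 ± 0.88 (SE) with YAP1-TFE3 (edgeR, adjusted p = 0.000631, 0.0315 and 0.00011). The neuronal and glial uptake transporters Slc1a1 and Slc1a2 had -3.52 and -3.99 in YAP1-TFE3, and the cystine and glutamate exchanger Slc7a11 had -2.02 in YAP1-MAMLD1-dR3R1. Slc38a1, a glutamine transporter, fell in YAP1-FAM118B (-0.90 ± 0.25 (SE), adjusted p = 0.0237) and rose in YAP1-TFE3 (0.72 ± 0.25 (SE), adjusted p = 0.0251). Of 10 genes of GABA synthesis, transport and breakdown, 8 fell in YAP1-TFE3 tumours, 9 in YAP1-MAMLD1-dR3R1 and 3 in YAP1-FAM118B, and the medians were -2.66, -1.02 and -4.45. The GABA uptake gene Slc6a11 had -5.08 in YAP1-TFE3, Abat, which starts GABA breakdown, had -2.03 in YAP1-MAMLD1-dR3R1, and Aldh5a1, which completes it, had -2.60 in YAP1-MAMLD1-dR3R1, -1.25 in YAP1-FAM118B tumours and -2.20 with YAP1-TFE3. Slc12a2, a chloride importer, fell by 1.08 in YAP1-FAM118B tumours.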

How the data were processed

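Bulk RNA-seq covered 12 mouse libraries, 3 in each of 4 groups taken from the sample labels. The deposited values are read counts per gene, which, per the submitters' processing notes, the authors made with HTSeq on mm10. The aligner, versions, annotation, strandedness and any filter were not stated there.

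Genes with low counts were removed with filterByExpr (minimum count 10), which left 16364 genes, among them 41 of the 46 matched receptor genes. edgeR 4.0.16 in R 4.3.3 fitted a quasi-likelihood model with TMM scaling to all 12 libraries together, with group as the only term. P-values were adjusted by Benjamini-Hochberg over all genes tested, with a threshold of 0.05. CPM use the library size times the TMM factor, log2 CPM a prior count of 2, and standard errors come from the fold change and its F value. Subunit ratios were compared with two-sided exact permutation tests. Coordinates and exon lengths come from GENCODE vM21 (GRCm38). The model was tested on simulated data with known changes.

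The receptor genes, the gene lists and the naming rule were chosen with earlier results of these data known. The rule gave values of every library for the most abundant gene of each family, the genes called with the lowest and highest fold change, and every gene called between fusions or higher than in naive cortex; other receptor genes were added. Values of some genes that the rule covers are not reported here, though counts and medians over the 41 genes include them. From each pathway list it took up to 4 genes called by adjusted p and up to 2 called against the majority. Alternatives were DESeq2 1.42.0, RLE factors, library size alone, no filter, a filter at 1 CPM, a fit of only the groups compared, a replicate block, the omission of single libraries, and the omission of both that held Xist and Ddx3y. Same-numbered libraries of different groups were checked for pairing. Depth of 19850220 to 24760814 counts put 3 counts at 0.116 to 0.145 CPM.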

Additional observations from a re-analysis of the deposited data

How the results depend on the processing

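No call on a receptor gene changed its direction under any of the 20 alternatives. With each library left out in turn, the number of the 41 genes called ranged from 22 to 38 in YAP1-MAMLD1-dR3R1 tumours against naive cortex (34 with all libraries), from 0 to 7 in YAP1-FAM118B (5), from 38 to 41 in YAP1-TFE3 (41), from 1 to 22 in YAP1-FAM118B against YAP1-MAMLD1-dR3R1 (8), from 7 to 32 in YAP1-TFE3 against YAP1-MAMLD1-dR3R1 (8) and from 28 to 39 in YAP1-TFE3 against YAP1-FAM118B (37). Against naive cortex, the 22 arose without YAP1-MAMLD1-dR3R1 replicate 2, where 54.8% of all genes passed. EdgeR's 0 arose without YAP1-FAM118B replicate 1 or 3, where 18.6 and 17.9% passed. Naive replicate 3 left out gave 1 call in YAP1-FAM118B, and naive replicate 1 gave 3, where 21.3 and 19.5% of all genes passed. Between fusions, the 1 arose without YAP1-MAMLD1-dR3R1 replicate 2 or 3 or YAP1-FAM118B replicate 1 or 2, and both the 22 and the 32 without YAP1-TFE3 replicate 2. Of all genes 10 to 11.6% passed at the 1 and 29% at the 22, and the share at the 32 is not given here. For YAP1-FAM118B against naive cortex, DESeq2 called 11 genes, a fit of only these groups 31 and the fit without both libraries holding Xist and Ddx3y 3. Of all genes 38, 42.6 and 25.2% passed there. For YAP1-FAM118B against YAP1-MAMLD1-dR3R1 the same settings called 18, 14 and 1, and a table with no filter 4, where 36.8, 23, 6.08 and 17.7% of all genes passed. For YAP1-TFE3 against YAP1-MAMLD1-dR3R1 DESeq2 called 16, where 43.8% of all genes passed. The cause was not tested.

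The replicate block, with the replicate number as a further term, called 13 genes in YAP1-TFE3 against YAP1-MAMLD1-dR3R1, and 32, 6 and 41 in the comparisons of YAP1-MAMLD1-dR3R1, YAP1-FAM118B and then YAP1-TFE3 with naive cortex. Of all genes 39.1, 62.2, 28.8 and 69.2% passed there, in the same order. The numbers did not pair the libraries: correlations of same-numbered deviations were -0.111 to 0.0542 between naive cortex and the fusions and -0.0319 to 0.324 between fusions (0.0822, 0.0622 and 0.324 for YAP1-MAMLD1-dR3R1 and YAP1-TFE3), with no pair of groups above 0.1 in all 3 numbers, and 3 of 9 tumour libraries correlated best with the naive library of their own number.

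Left out in turn, libraries moved the difference in the log2 ratio of Grin2b to Grin2a in YAP1-FAM118B between -0.0984 and 0.160, that of Gria1 to Gria2 in YAP1-FAM118B between -0.863 and -0.324, and in YAP1-TFE3 between -0.182 and 0.357, the extremes without naive replicates 1, 2 or 3. That of Grin2b to Grin2a moved more in the other fusions, between -0.329 (without YAP1-MAMLD1-dR3R1 replicate 3) and 1.25 in YAP1-MAMLD1-dR3R1 and between 0.0598 (without YAP1-TFE3 replicate 1) and 1.40 in YAP1-TFE3. With 5 added to each count, that of Grin2b to Grin2a went from 0.63 to -0.25 in YAP1-MAMLD1-dR3R1 and from 0.95 to -0.21 in YAP1-TFE3. DESeq2, RLE factors and library size alone moved the median of all genes in YAP1-TFE3 from 0.23 to 0, 0.07 and 0.03. DESeq2 gave no adjusted p for 2 receptor genes. Genes of under 1 CPM in a library rest on few counts: 7 receptor genes in YAP1-TFE3 replicate 1 had 3 counts or fewer.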
